A study of Homo sapiens with 16 samples.

Results

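A431 cells, a line from an epidermoid carcinoma, and HaCaT cells, a spontaneously immortalised keratinocyte line, were compared by RNA-seq while both expressed YAP5SA, a constitutively active mutant of the transcriptional co-activator YAP1. The comparison takes every library whose label names this construct, 3 of A431 and 3 of HaCaT, which are 6 of the 16 libraries of the series. The series was made to find genes regulated by YAP in human keratinocytes, and it also holds, for each line, 1 library with the empty vector, 1 with a control siRNA (siCTRL) and 3 with siRNA against YAP1 (siYAP). Both lines were grown in DMEM with fetal calf serum, and the YAP5SA cells received no siRNA. The labels name the construct YAP1 S5A in all 6 libraries. Each line stands for itself only, since A431 is 1 tumour line and HaCaT is 1 immortalised line. The replicates of a group are described as biological, and no further detail separates cultures from repeated preparations.

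YAP (encoded by YAP1) and its relative TAZ (encoded by WWTR1) carry no DNA-binding domain and act in the nucleus by binding the TEAD transcription factors. The Hippo kinases MST1, MST2, LATS1 and LATS2 phosphorylate YAP and hold it in the cytoplasm. In YAP5SA the serines that LATS phosphorylates are replaced, so that the protein is no longer restrained in this way. In skin, nuclear YAP marks the basal layer, where keratinocytes divide and attach to the basement membrane through integrins, and basal cells that leave this layer change their keratins and build the cornified envelope. The question asked here is how far A431 and HaCaT differ when both carry the active mutant. A431 is also known for an amplified EGFR gene.

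Levels are CPM, counts scaled to the size of each library after edgeR's TMM factors, and they are given in the order of replicates 1, 2 and 3. The difference between the lines is a log2 fold change of A431 over HaCaT with its standard error, so that negative values mean a higher level in HaCaT. A gene was called when edgeR's quasi-likelihood test gave a false discovery rate (FDR, Benjamini-Hochberg) under 0.05 and its mean logCPM was above 1, and "higher" is written below of called genes. Where all 3 libraries of a line held 3 counts or fewer, the fold was computed against 3 counts in each library (0.0765 to 0.129 CPM here) and stands as a lower bound. The YAP5SA libraries held 24136767 to 37228429 counts in A431 and 36919543 to 39980642 in HaCaT. The labels matched the cells: 22 genes found in the siRNA libraries of A431 but not in those of HaCaT had medians of 31.9 to 42.9 CPM in the A431 YAP5SA libraries and at most 0.103 CPM in those of HaCaT, and 13 genes of the opposite kind stayed at 3 counts or fewer in each A431 YAP5SA library. Of the 22 genes, 12, 10 and 9 passed 3 counts in HaCaT YAP5SA libraries 1, 2 and 3, at up to 9.27 CPM. All 16 keratinocyte markers were above 3 counts in each of the 6 libraries, and their summed level was 7868.5 to 8593 CPM in A431 and 10334 to 12829 CPM in HaCaT. Of the fibroblast markers, FBLN1 gave A431 most of its higher sum (120.4 to 149.7 CPM against 18.8 to 36.1 CPM), and of the immune markers CD68 did so (171 to 183 CPM against 24.9 to 36.3 CPM). At most 5 of 10 fibroblast markers and 7 of 10 immune markers passed 3 counts in any of the libraries, COL1A2, COL3A1, POSTN and PDGFRA lay at or near 0 in both lines, and PTPRC, which marks white blood cells, was at 0 in A431. The part of such cells in any result was not tested, and in bulk RNA fewer cells of a type and less RNA per cell cannot be told apart. Library 1 of A431 stood apart from its replicates, with a standard deviation of the log2 ratio per gene of 0.420 and 0.364 against libraries 2 and 3, which differed from each other by 0.179, and the values for HaCaT were 0.346 to 0.489.

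YAP1 itself was lower in A431. Its level was 1495, 3245 and 2939.6 CPM in A431 and 7549, 22255 and 10069 CPM in HaCaT, so that the groups did not overlap (log2 fold change -2.38 ± 0.36, FDR = 9.0e-05). The empty vector library held 124 CPM in A431 and 423 CPM in HaCaT, which puts every YAP5SA library above the vector library of its own line. The spread within HaCaT was wide: the mean was 13291 ± 7864 CPM (SD, n = 3), and that of A431 was 2560 ± 935 CPM (SD, n = 3), and an exact permutation test of the 3 against 3 values (two-sided) gave p = 0.1, the smallest that this design allows. The counts do not separate the mutant from the cells' own YAP1, and the line and the level of the construct cannot be told apart in any result that follows.

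**Figure D1:**
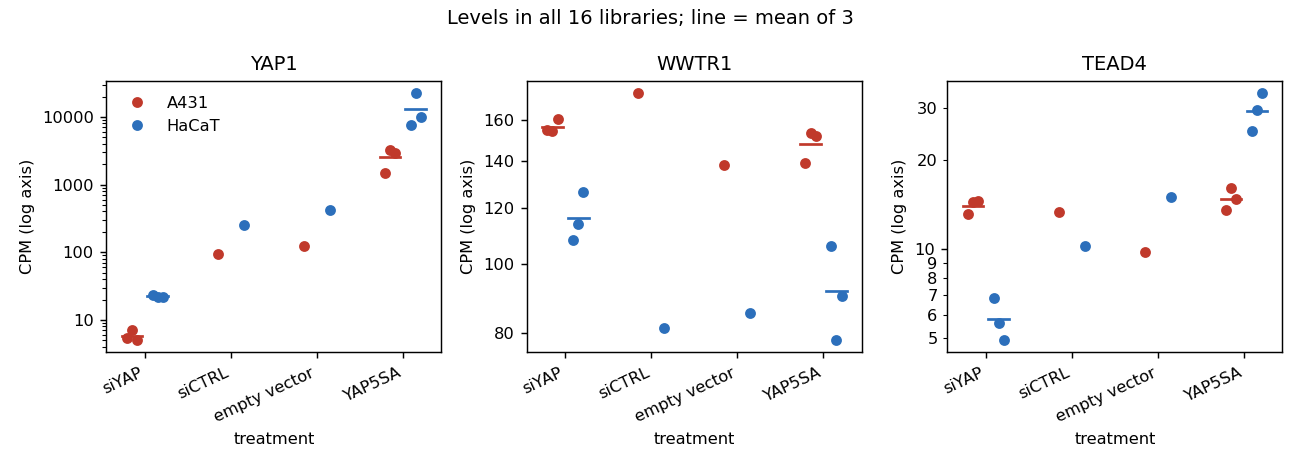
Levels of YAP1, WWTR1 and TEAD4 (CPM, log axis) in each of the 16 libraries by line and treatment, where points are libraries and short lines are means of 3. YAP1 in the YAP5SA libraries of A431 lies between 1495 and 3245 CPM and in those of HaCaT between 7549 and 22255 CPM.

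The partners of YAP differed in both directions. WWTR1, which encodes TAZ, was higher in A431, at 139, 153 and 152 CPM against 106, 78.1 and 90.3 CPM in HaCaT (log2 fold change 0.69 ± 0.11, FDR = 1.3e-04). The lines did not overlap. TEAD4, one of the DNA-binding partners, was lower in A431, at 13.6, 16.1 and 14.8 CPM against 25.2, 29.6 and 33.7 CPM (log2 fold change -0.99 ± 0.15, FDR = 9.8e-05). TEAD2 was also lower, with 5.64, 3.64 and 4.03 CPM against 9.10, 7.44 and 6.43 CPM (log2 fold change -0.79 ± 0.22, FDR = 0.0068). TEAD1 was not called (log2 fold change -0.27 ± 0.12, FDR = 0.067), although its A431 values of 177, 239 and 234 CPM lay below the HaCaT values of 248, 264 and 275 CPM, and it was called when A431 library 2 was left out (-0.35 ± 0.13, FDR = 0.043). Of the settings that kept all libraries of the comparison, 6 called it as well (FDR = 0.026 to 0.044), among them DESeq2 (-0.32 ± 0.13, FDR = 0.030) and the replicate number as a block within the YAP5SA libraries (-0.29 ± 0.10, FDR = 0.026). TEAD3 was not called (0.01 ± 0.15). VGLL4 and VGLL3, vestigial-like proteins that also bind TEADs, were higher in A431 (1.08 ± 0.16 and 0.36 ± 0.10), although VGLL3 was not called in edgeR on the 6 YAP5SA libraries alone (0.31 ± 0.11, FDR = 0.056). The direction of this set thus depended on the member: of the 9 factors tested, YAP1 itself included, 3 were higher in A431 and 3 in HaCaT. YAP1, whose count includes the construct, is among the latter.

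Across the transcriptome the lines differed at 7362 of the 14673 genes tested, or 50.2%. In A431, 3911 genes (26.7%) were higher, and in HaCaT 3451 (23.5%). With a log2 fold change of at least 1 in addition, 1672 genes (11.4%) were higher in A431 and 1300 (8.86%) in HaCaT. The median over all genes tested was 0.04 on the log2 scale. The 3 libraries of one line lay above all 3 of the other for 4650 genes (31.7%) in A431 and 4127 (28.1%) in HaCaT. Of the called genes, 139 in A431 and 175 in HaCaT passed a log2 fold change of 5, and 50 and 96 had no library of the other line above 3 counts. Since any named group can hold many called genes against this background, the counts below are read beside 26.7% and 23.5%. They cover the members that passed the filter of a mean above 10 counts over all 16 libraries, and a gene found in 1 line only could pass only through that line.

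**Figure D2:**
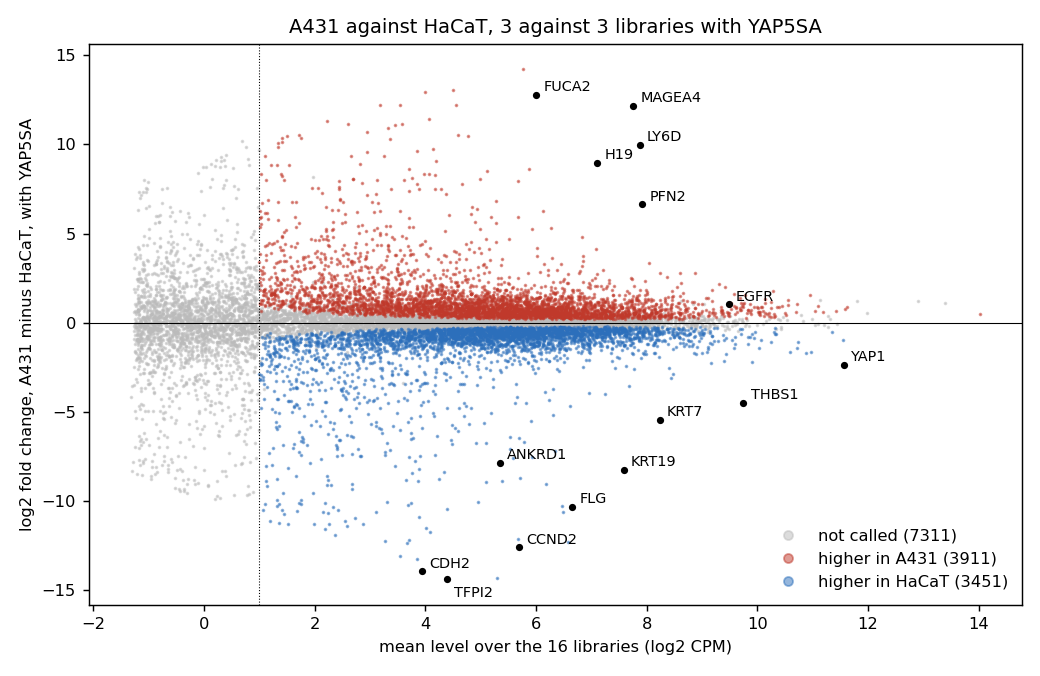
Log2 fold change of A431 over HaCaT with YAP5SA (vertical axis) against the mean level over all 16 libraries (log2 CPM) for the 14673 genes tested, with called genes coloured by the line in which they were higher. The 3911 genes higher in A431 and the 3451 higher in HaCaT spread over the levels above a logCPM of 1, the limit for a call. Genes named in the text are labelled.

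The largest differences with a higher level in A431 came from genes that HaCaT barely transcribed. FUCA2, a secreted fucosidase, reached 152, 162 and 153 CPM in A431 and was at 0, 0 and 0.0510 CPM in HaCaT, at least 1949.7-fold higher in A431. MAGEA4, an antigen normally limited to the testis and to tumours, was at 468, 502 and 530.4 CPM against 0.307, 0 and 0 CPM (log2 fold change 12.15 ± 0.45, FDR = 3.4e-09). LY6D, a GPI-anchored surface protein of stratified epithelia, was at 862, 666 and 723 CPM against 1.46, 0.144 and 0.587 CPM (log2 fold change 9.97 ± 0.44, FDR = 1.7e-09). No library of HaCaT came near any library of A431 for these genes. The imprinted non-coding RNA H19 was at 368, 162 and 196 CPM against 1.13, 0.0287 and 0.230 CPM (log2 fold change 8.98 ± 0.63, FDR = 9.2e-08). The membrane protein TMEM47, the scaffold protein MPDZ, the actin-binding profilin PFN2 and the transcript C15orf48 were higher as well, with log2 fold changes of 8.59 ± 0.22, 6.81 ± 0.30, 6.65 ± 0.28 and 7.94 ± 0.35. The pseudogene transcript DUXAP10 (10.48 ± 0.37) has close copies, and UGT1A10 (10.52 ± 0.40), a UDP-glucuronosyltransferase, shares most of its exons with its neighbours in the UGT1A cluster, so that the assignment of reads to either is uncertain.

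The largest differences on the HaCaT side included genes almost without counts in A431. CDH2, which encodes N-cadherin, was at 43.3, 91.6 and 71.0 CPM in HaCaT and 0, 0 and 0 CPM in A431, at least 614-fold lower in A431. CCND2, the G1 cyclin D2, was at 94.6, 117 and 91.7 CPM against 0, 0 and 0.0278 CPM, at least 903-fold lower. TFPI2, a protease inhibitor of the extracellular matrix, was at 59.6, 149 and 72.3 CPM against 0, 0 and 0 CPM, at least 837-fold lower. All 3 were at 3 counts or fewer in every A431 library with YAP5SA. The same held for SPG20, which encodes spartin (at least 797-fold lower), and for the secretoglobin SCGB1A1 (at least 566-fold lower). Galactosaminyltransferase GALNT5, semaphorin SEMA3D, the receptor phosphatase PTPRB and the anchoring protein AKAP2, which overlaps the read-through gene PALM2-AKAP2, were higher in HaCaT with log2 fold changes of -9.06 ± 0.24, -8.86 ± 0.36, -8.70 ± 0.31 and -10.30 ± 0.52.

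Canonical YAP target genes were more often higher in HaCaT. Of 22 targets tested, 12 (54.5%) were higher in HaCaT and 2 (9.09%) in A431, and their median log2 fold change was -0.65 against 0.04 over all genes. ANKRD1, a nuclear ankyrin-repeat protein, was at 0.56, 1.14 and 0.945 CPM in A431 and 100.5, 309 and 217 CPM in HaCaT (log2 fold change -7.86 ± 0.46, FDR = 1.8e-08). Every HaCaT library lay far above every A431 library. CTGF (now CCN2), a secreted matricellular protein, was at 0.0430, 0.163 and 0.0834 CPM against 9.38, 14.9 and 15.1 CPM (log2 fold change -7.03 ± 0.70, FDR = 2.3e-06). Its relative CYR61 (CCN1) was at 36.5, 62.4 and 55.0 CPM against 202, 102 and 139 CPM (log2 fold change -1.52 ± 0.25, FDR = 1.8e-04). The 3 genes thus lay on the same side, with much larger differences for ANKRD1 and CTGF.

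The promoters of ANKRD1 and CTGF hold the sequence that TEAD factors bind, GGAATG, and are shown because these genes had the largest differences among the targets. The windows of 30 bases are from RefSeq on GRCh38.p14, which is not the build of the counts (hg19), are written 5′ to 3′ on the minus strand on which both genes lie, and have the motif in capitals. The first 2 lines lie 232 to 203 and 140 to 111 bases upstream of the ANKRD1 start at chr10:90921290-90921319 and chr10:90921198-90921227, and the last lies 108 to 79 bases upstream of the CTGF start at chr6:131951451-131951480.
ANKRD1, distal window: atcaccaccaaaGGAATGgccctctcacat
ANKRD1, proximal window: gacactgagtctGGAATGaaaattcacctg
CTGF: gggaGGAATGcgaGGAATGtccctgtttgt
In the 300 bases around the start (250 before and 50 after), GGAATG or its complement CATTCC was found in 9 of the 17 targets for which RefSeq gave a promoter (52.9%) and in 4928 of 35116 promoters in all (14%). The first share counts genes with a match in any of their promoters, and the second counts single promoters, so the shares differ in unit. A match is a description of the letters and not evidence of binding.

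Other targets were higher in HaCaT by smaller amounts. NT5E, the ectonucleotidase CD73, was at 65.5, 72.9 and 65.2 CPM against 317, 483 and 403 CPM (log2 fold change -2.56 ± 0.15, FDR = 2.3e-08). GADD45B (-1.99 ± 0.18), a stress-induced regulator of growth, and MYOF (-1.40 ± 0.12), a membrane-repair protein, were also higher. Tissue factor F3 (-1.18 ± 0.16), the kinase LATS2 (-1.16 ± 0.12), AMOTL2 (-0.97 ± 0.14) and CRIM1 (-0.84 ± 0.11) came next, and LATS2 and AMOTL2 are themselves restraints on YAP. DOCK5 (-1.13 ± 0.09) and TGFB2 (-0.45 ± 0.15) completed the members higher in HaCaT, of which TGFB2 was not called without A431 library 3 (-0.43 ± 0.18, FDR = 0.062) or HaCaT library 3 (-0.34 ± 0.16, FDR = 0.090). CCDC80, a matrix protein, went the other way, at 162, 85.9 and 94.8 CPM in A431 and 69.4, 29.8 and 40.9 CPM in HaCaT (log2 fold change 1.29 ± 0.29, FDR = 0.0021). The RNA-binding protein RBMS3 was the other member higher in A431 (log2 fold change 2.07 ± 0.29, FDR = 5.1e-05). The receptor kinase AXL (0.01 ± 0.15) and IGFBP3 (0.10 ± 0.19) were among the 8 that were not called. Over the same 22 genes the median difference between the lines was -0.20 in the empty vector libraries, 1 of each line, and -0.60 in the siCTRL libraries. With siYAP, 3 libraries of each line, 11 of the 22 were higher in HaCaT and 7 in A431, with a median of -0.33. Over all genes tested with siYAP, 26.9% were higher in HaCaT and 31.7% in A431.

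**Figure D3:**
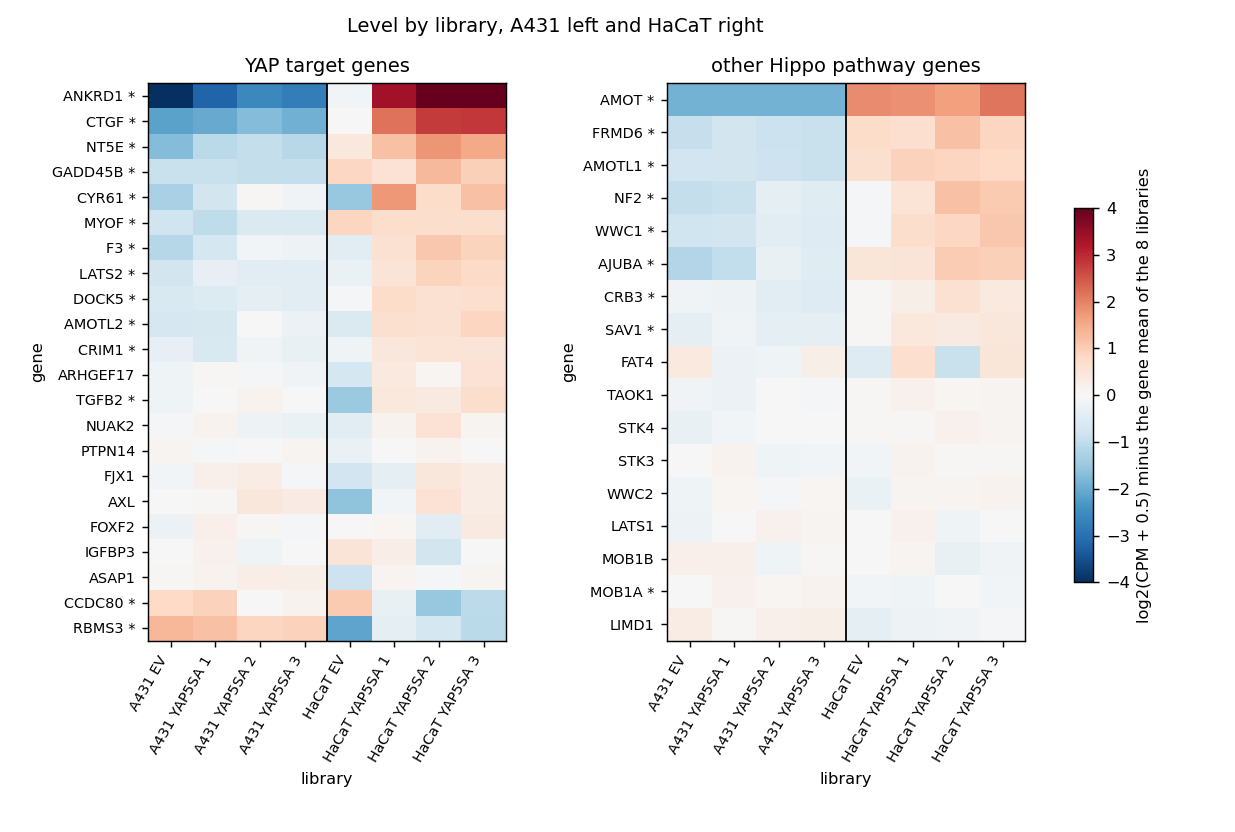
Levels of 22 YAP target genes and 17 other genes of the Hippo pathway in each line with the empty vector or YAP5SA, as log2(CPM + 0.5) minus the mean of the gene over the 8 libraries. An asterisk marks genes called between the lines with YAP5SA, and ANKRD1 and CTGF run from the lowest colours in A431 to the highest in HaCaT.

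Kinases of the Hippo pathway, which restrain YAP, and their regulators were also more often higher in HaCaT than in A431. Of 20 Hippo kinases and upstream regulators tested, 10 (50%) were higher in HaCaT and 1 (5%) in A431, with a median of -0.61. The list shares members with the targets, and LATS2 and AMOTL2 are counted as higher in HaCaT in both. AMOT, which encodes angiomotin, an actin-binding protein that holds YAP in the cytoplasm, was at 6.02, 5.23 and 7.57 CPM in HaCaT and at 0, 0 and 0 CPM in A431, at least 56.2-fold lower in A431. NF2, the tumour suppressor merlin, was at 47.1, 67.7 and 63.4 CPM in A431 and 130.1, 200.3 and 181 CPM in HaCaT (log2 fold change -1.52 ± 0.17, FDR = 7.5e-06). Neither gene overlapped between the lines. The FERM protein FRMD6 (-1.75 ± 0.13), the angiomotin relative AMOTL1 (-1.68 ± 0.10), the scaffold WWC1, known as KIBRA (-1.45 ± 0.11), and the LIM protein AJUBA, an inhibitor of the LATS kinases (-1.42 ± 0.17), were lower in A431 too. MOB1A, a cofactor of LATS, was the only member called higher in A431, by a small amount (log2 fold change 0.22 ± 0.09, FDR = 0.046), and leaving out any library other than HaCaT library 2 ended that call (FDR = 0.064 to 0.12), as did 9 other settings (FDR = 0.052 to 0.21), so that 0 members were called in A431 without A431 library 2 or 3 or HaCaT library 1 or 3.

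EGFR, the receptor for which A431 is known, was at 753, 886 and 805 CPM in A431 and 419, 379.9 and 395 CPM in HaCaT (log2 fold change 1.03 ± 0.13, FDR = 1.6e-05). The groups did not overlap. Its relatives ERBB2 and ERBB3 were higher in A431 too (0.89 ± 0.09 and 0.83 ± 0.14). The ligand EREG was at 105, 122 and 128 CPM in A431 against 11.8, 21.9 and 11.6 CPM in HaCaT (log2 fold change 2.98 ± 0.21, FDR = 9.6e-08), with no overlap. The other ligands called went the opposite way. HBEGF was at 23.2, 34.9 and 27.4 CPM against 37.6, 96.8 and 45.3 CPM (log2 fold change -1.07 ± 0.28, FDR = 0.0058). EPGN (-3.14 ± 0.40), TGFA (-0.71 ± 0.13) and NRG1 (-0.90 ± 0.18) were higher in HaCaT, although the mean logCPM of EPGN fell below the limit for a call without HaCaT library 1, 2 or 3 (-3.35 to -3.02) or with the 6 YAP5SA libraries alone. AREG was called higher in HaCaT (log2 fold change -1.04 ± 0.35, FDR = 0.021), at 18.8, 36.8 and 33.5 CPM in A431 and 39.9, 96.2 and 47.1 CPM in HaCaT, but was not called without A431 library 1 (-0.80 ± 0.35, FDR = 0.076) or HaCaT library 2 (-0.55 ± 0.29, FDR = 0.13). Of the feedback inhibitors that ERK signalling induces, DUSP5 was higher in A431 (1.61 ± 0.19) and DUSP6 in HaCaT (-1.18 ± 0.17), and SPRY2, at 7.17, 6.43 and 6.81 CPM in HaCaT and 0.0861, 0 and 0.0278 CPM in A431, was at least 60.9-fold lower in A431. Of 20 ligands, receptors and feedback genes tested, 5 (25%) were higher in A431 and 8 (40%) in HaCaT, with a median of -0.35.

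Integrins and the basement membrane they bind differed member by member. ITGB1, the beta chain shared by most integrins of basal keratinocytes, was at 1318, 1519.8 and 1561 CPM in A431 and 1059.8, 1150.3 and 959 CPM in HaCaT (log2 fold change 0.47 ± 0.11, FDR = 0.0024). ITGA3, its partner in the laminin receptor, was higher in A431 as well, at 290.3, 422 and 375 CPM against 234, 244 and 236 CPM (log2 fold change 0.61 ± 0.12, FDR = 6.5e-04). ITGA6, which pairs with ITGB4 in the hemidesmosome, was lower in A431, at 734, 990.1 and 955 CPM against 1659, 1644 and 1442 CPM (log2 fold change -0.82 ± 0.13, FDR = 1.0e-04). None of these 3 genes overlapped between the lines. ITGB4 was lower by a margin (log2 fold change -0.42 ± 0.16, FDR = 0.04) that was not called after leaving out any 1 library other than HaCaT library 2 (FDR = 0.058 to 0.19). ITGB2 was lower too (log2 fold change -1.13 ± 0.39, FDR = 0.026), and was not called without A431 library 1 (-0.86 ± 0.40, FDR = 0.087), HaCaT library 1 (-1.08 ± 0.44, FDR = 0.051) or HaCaT library 3 (-0.95 ± 0.45, FDR = 0.094). ITGB6, a receptor chain of activated keratinocytes, was higher in A431 (0.97 ± 0.21), and the chains ITGA4, ITGB8 and ITGA1 were higher in HaCaT (-1.93 ± 0.21, -1.35 ± 0.15 and -2.60 ± 0.28). In all, 4 of 18 integrin chains (22.2%) were higher in A431 and 6 (33.3%) in HaCaT.

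Of 22 genes of the basement membrane and hemidesmosome, 6 (27.3%) were higher in A431 and 8 (36.4%) in HaCaT. LAMA3, the alpha chain of laminin-332, was at 275, 383 and 349 CPM in A431 and 1104, 2353 and 1385 CPM in HaCaT (log2 fold change -2.27 ± 0.23, FDR = 3.1e-06). Its beta chain LAMB3 lay on the same side (log2 fold change -1.04 ± 0.15, FDR = 6.1e-05). The hemidesmosome plakin DST was higher in HaCaT (log2 fold change -1.38 ± 0.13, FDR = 1.4e-06), and so was the laminin-binding nidogen NID2, which was at 0.344, 0.450 and 0.139 CPM against 23.7, 25.6 and 26.1 CPM (log2 fold change -6.39 ± 0.39, FDR = 2.8e-08). LAMA4, a laminin chain of vessels and mesenchyme, was higher in A431, at 70.2, 76.1 and 75.8 CPM against 14.1, 3.67 and 5.53 CPM (log2 fold change 3.25 ± 0.35, FDR = 4.9e-06). Perlecan, encoded by HSPG2, was also higher in A431 (log2 fold change 1.42 ± 0.29, FDR = 9.3e-04). NID1 was called higher in A431 (log2 fold change 0.80 ± 0.32, FDR = 0.049), with an FDR of 0.069 to 0.15 without 1 of the libraries other than HaCaT library 1 and of 0.054 to 0.11 under 6 other settings, and the number of members higher in A431 ranged from 3 to 6 when single libraries were left out. It was 3 without A431 library 2 or 3.

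Keratins differed in both directions. KRT7 and KRT19 are keratins of simple and glandular epithelia and KRT19 also marks the hair follicle. KRT19 was at 1.03, 0.940 and 1.14 CPM in A431 and 426, 182 and 351 CPM in HaCaT (log2 fold change -8.25 ± 0.33, FDR = 9.3e-10). KRT7 was at 13.7, 21.5 and 17.9 CPM against 732, 732 and 872 CPM (log2 fold change -5.46 ± 0.19, FDR = 3.6e-10). KRT8, the partner of KRT18 in simple epithelia, was lower in A431 as well (log2 fold change -1.70 ± 0.14, FDR = 3.4e-07). Each of them was higher in every HaCaT library than in any A431 library. KRT14, the basal keratin of skin, was at 459, 293 and 293 CPM in A431 and 1542, 846 and 951 CPM in HaCaT (log2 fold change -1.68 ± 0.22, FDR = 3.0e-05). KRT6B and KRT16, which skin makes in wounds and under stress, went the other way. KRT6B was at 135, 124 and 116 CPM in A431 against 3.77, 9.27 and 3.19 CPM in HaCaT (log2 fold change 4.53 ± 0.34, FDR = 1.7e-07), but KRT6B shares much of its sequence with KRT6A and KRT6C, so the split of reads among them is uncertain. KRT6A was not called (-0.28 ± 0.18), but was without HaCaT library 2 (-0.43 ± 0.17, FDR = 0.049). KRT6C was higher in HaCaT (-2.93 ± 0.36), although its mean logCPM fell below the limit for a call without HaCaT library 1, 2 or 3 (-3.17 to -2.67) or after thinning all libraries to the smallest total (-2.78). KRT16, a partner of KRT6, was at 49.0, 31.5 and 31.9 CPM against 14.2, 12.1 and 6.84 CPM (log2 fold change 1.76 ± 0.27, FDR = 8.9e-05). KRT80 was higher in A431 too (log2 fold change 2.45 ± 0.13, FDR = 6.2e-09). Of 20 keratins tested, 6 (30%) were higher in A431 and 8 (40%) in HaCaT, and the first count ranged from 5 to 10 when single libraries were left out, with 10 reached without HaCaT library 1.

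Among the transcription factors of the keratinocyte lineage, TP63, the master regulator of basal cells, was modestly higher in A431, at 395, 347 and 353 CPM against 287, 178 and 212 CPM (log2 fold change 0.69 ± 0.15, FDR = 0.0018). KLF4, which acts in the suprabasal layers and the skin barrier, was higher in A431 as well (log2 fold change 1.5 ± 0.20, FDR = 2.5e-05), as was ELF3, an epithelial ETS factor (log2 fold change 1.04 ± 0.18, FDR = 3.2e-04). SOX9, a factor of hair follicle stem cells, was lower in A431 (log2 fold change -1.10 ± 0.18, FDR = 1.7e-04). ID2 and ID3, which hold back basic helix-loop-helix factors and are targets of BMP signalling, were lower by more, ID2 at 5.55, 5.23 and 6.12 CPM against 46.5, 45.7 and 50.7 CPM (log2 fold change -3.07 ± 0.15, FDR = 3.9e-09) and ID3 with log2 fold change -2.31 ± 0.22, FDR = 1.8e-06. For ID2 no A431 library reached a HaCaT library. In all, 5 of the 21 factors tested (23.8%) were higher in A431 and 7 (33.3%) in HaCaT.

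Genes of late differentiation differed strongly in both directions, with 6 of 26 (23.1%) higher in A431 and 7 (26.9%) in HaCaT. FLG, which encodes filaggrin, was at 0.258, 0.286 and 0.167 CPM in A431 and 209, 363 and 317 CPM in HaCaT (log2 fold change -10.32 ± 0.42, FDR = 9.3e-10). Involucrin, encoded by IVL, was at 4.39, 4.45 and 4.39 CPM against 139, 25.4 and 52.2 CPM (log2 fold change -4.03 ± 0.47, FDR = 9.5e-06), with HaCaT library 1 well above its replicates. KLK5, a protease that sheds corneocytes, was lower in A431 too (log2 fold change -6.70 ± 0.22, FDR = 1.8e-10). The calmodulin-like proteins of differentiating skin stood on the other side. CALML3 was at 22.2, 32.5 and 35.0 CPM in A431 and 0, 0 and 0.0255 CPM in HaCaT, at least 374-fold higher in A431, and CALML5 was at 21.3, 27.5 and 27.2 CPM against 0, 0.0287 and 0 CPM, at least 317-fold higher. The protease KLK6 was higher in A431 by 2.87 ± 0.27. The S100 proteins, small calcium-binding proteins many of which lie beside the cornified envelope genes, were higher in A431 for 5 of 13 (38.5%) and in HaCaT for 2 (15.4%). S100A9, which rises in inflamed skin, was at 42.2, 19 and 23.7 CPM against 3.05, 3.13 and 2.35 CPM (log2 fold change 3.31 ± 0.30, FDR = 8.5e-07). S100P (2.05 ± 0.29) and S100A4 (1.87 ± 0.24) were higher in A431, and S100A2 (-1.18 ± 0.18) and S100A13 (-0.86 ± 0.18) in HaCaT.

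Cell junction genes were higher in A431 for 6 of 32 (18.8%) and in HaCaT for 12 (37.5%). The gap junction proteins GJB2 and GJB6 were on the A431 side, while the related GJB5 was higher in HaCaT (-0.80 ± 0.14). GJB2 (connexin 26) was at 55.0, 87.3 and 79.3 CPM in A431 and 15.4, 10.3 and 10.3 CPM in HaCaT (log2 fold change 2.62 ± 0.21, FDR = 2.8e-07). GJB6 (connexin 30) was at 21, 22.3 and 24.5 CPM against 0.307, 0 and 0.128 CPM (log2 fold change 7.2 ± 0.47, FDR = 2.3e-07). Claudin 1, encoded by CLDN1 and part of the tight junction barrier of skin, was higher in A431 as well (log2 fold change 1.62 ± 0.19, FDR = 1.2e-05). The desmosomal genes that were called lay on the HaCaT side. DSP, the desmosomal plakin, was at 399.9, 387 and 415 CPM against 912, 807 and 776 CPM (log2 fold change -1.05 ± 0.13, FDR = 1.1e-05), and the desmosomal cadherin DSG3 was lower in A431 by a smaller amount (log2 fold change -0.82 ± 0.19, FDR = 0.0027).

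HaCaT with YAP5SA also held the higher level of several genes known from mesenchymal cells. Besides CDH2, fibronectin (FN1) was at 47.3, 164 and 97.2 CPM in HaCaT and 1.89, 1.88 and 1.86 CPM in A431 (log2 fold change -5.77 ± 0.45, FDR = 2.8e-07). SPARC, a matricellular protein, was at 23.1, 10.3 and 18.8 CPM against 0, 0 and 0.0278 CPM, at least 156-fold lower in A431. CALD1, the actin-binding caldesmon, went the other way, at 59.0, 57.0 and 57.2 CPM in A431 and 8.04, 11.8 and 11.2 CPM in HaCaT (log2 fold change 2.48 ± 0.16, FDR = 5.2e-08). LTBP2 and LOXL2, a matrix protein and a collagen crosslinker, were called higher in A431 by small amounts (log2 fold change 0.57 ± 0.21, FDR = 0.037 and log2 fold change 0.44 ± 0.17, FDR = 0.044). The LTBP2 call was lost without A431 library 1, 2 or 3 or HaCaT library 2 or 3 (0.42 to 0.62, FDR = 0.051 to 0.14), and that of LOXL2 without A431 library 1 or 3 or HaCaT library 2 (0.26 to 0.45, FDR = 0.078 to 0.15). Other settings ended the LTBP2 call 3 times (FDR = 0.053 to 0.12) and that of LOXL2 6 times (FDR = 0.058 to 0.12). Of 19 mesenchymal genes tested, 4 (21.1%) were higher in A431 and 8 (42.1%) in HaCaT, with a median near zero (-0.04). Among 22 matrix proteases and their inhibitors, 7 (31.8%) were higher in A431 and 8 (36.4%) in HaCaT. The collagenase MMP1 was at 1.03, 0.817 and 0.417 CPM in A431 against 35.0, 112 and 32.1 CPM in HaCaT (log2 fold change -6.35 ± 0.56, FDR = 7.5e-07). The serpins SERPINE2 and SERPINB5 were higher in HaCaT (-4.34 ± 0.51 and -2.19 ± 0.12). The metalloprotease inhibitor TIMP3 (3.35 ± 0.28), the plasminogen activator PLAT (2.96 ± 0.27) and the membrane protease MMP15 (1.89 ± 0.19) were higher in A431.

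Genes induced by interferon, whose products block the entry, translation and replication of viruses, lay mostly on the HaCaT side. Of 41 interferon-stimulated genes, 25 (61.0%) were higher in HaCaT and 5 (12.2%) in A431, with a median of -0.69. IFIT2, which blocks the translation of viral RNA, was at 449.7, 289 and 331 CPM in A431 and 1083, 1990.5 and 1732 CPM in HaCaT (log2 fold change -2.17 ± 0.22, FDR = 2.7e-06). IFITM2, which restricts viral entry, was at 9.34, 2.98 and 4.67 CPM against 45.9, 38.9 and 47.7 CPM (log2 fold change -2.97 ± 0.29, FDR = 2.2e-06), although it shares sequence with IFITM1 and IFITM3. EPSTI1 was lower in A431 as well (log2 fold change -2.55 ± 0.20, FDR = 2.4e-07). In A431, HERC5, the ligase for ISG15, was higher, at 393, 217 and 253 CPM against 95.2, 58.5 and 66.4 CPM (log2 fold change 1.97 ± 0.22, FDR = 6.0e-06), as were BST2, also called tetherin (1.45 ± 0.25), and the helicase DDX60 (0.95 ± 0.22). IFI27 was not called (log2 fold change 0.55 ± 0.24, FDR = 0.06), but it was under 6 other settings (FDR = 0.012 to 0.043), among them DESeq2 (0.51 ± 0.19, FDR = 0.017) and the replicate number as a block within the YAP5SA libraries (0.55 ± 0.20, FDR = 0.035). The empty vector libraries had a median difference of -0.79 over the 41 genes.

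Genes of antigen presentation by MHC class I were divided as well. Of 19 genes tested, 7 (36.8%) were higher in A431 and 4 (21.1%) in HaCaT, with a median of 0.20. HLA-E was at 1151, 501 and 579 CPM in A431 and 219, 189.8 and 210.2 CPM in HaCaT (log2 fold change 1.85 ± 0.24, FDR = 2.0e-05), and HLA-C was higher in A431 too (log2 fold change 1.08 ± 0.10, FDR = 1.2e-06). The HLA class I genes differ between alleles and share sequence, so their counts are less certain. TAPBPL, which edits peptides, was higher in A431 (1.49 ± 0.17), and the trimming protease ERAP2 in HaCaT (-0.77 ± 0.15). B2M, the light chain of MHC class I, was lower in A431 (log2 fold change -0.55 ± 0.16, FDR = 0.012), but not called without A431 library 2 (-0.40 ± 0.16, FDR = 0.055) or A431 library 3 (-0.47 ± 0.19, FDR = 0.055). The peptide transporter TAP1 was lower as well (log2 fold change -0.42 ± 0.12, FDR = 0.0094), and not called without HaCaT library 3 (-0.31 ± 0.13, FDR = 0.053). The number of members higher in HaCaT ranged from 2 to 4 when single libraries were left out, and it was 2 without HaCaT library 3.

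Chemokines and cytokines were higher in HaCaT for 9 of 29 (31.0%) and in A431 for 5 (17.2%). The neutrophil attractant CXCL8 was at 26.1, 15.7 and 16.3 CPM in A431 and 45.3, 81.1 and 47.2 CPM in HaCaT (log2 fold change -1.58 ± 0.26, FDR = 2.0e-04). IL6 was at 1.21, 1.19 and 1.33 CPM against 10.4, 36.8 and 20.3 CPM (log2 fold change -4.17 ± 0.49, FDR = 1.1e-05). CXCL6 was lower in A431 as well (log2 fold change -6.24 ± 0.56, FDR = 9.5e-07). The T cell attractant CXCL11 went the other way, at 65.8, 23.6 and 32.1 CPM in A431 against 0.615, 6.52 and 1.38 CPM (log2 fold change 3.85 ± 0.64, FDR = 2.0e-04). The macrophage growth factor CSF1 (2.49 ± 0.16) and CCL22 (1.40 ± 0.34) were also higher in A431.

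The aldehyde dehydrogenases, which oxidise aldehydes from lipids, amino acids and retinol, lay mostly on the A431 side. Of 18 tested, 12 (66.7%) were higher in A431 and 2 (11.1%) in HaCaT, with a median of 1.43. ALDH1A1, a retinaldehyde dehydrogenase, was at 14.5, 11.9 and 15 CPM in A431 and 0.487, 0.0574 and 0.536 CPM in HaCaT (log2 fold change 5.22 ± 0.40, FDR = 2.3e-07). ALDH1L2, the mitochondrial enzyme of folate metabolism, was at 35.2, 97.4 and 85.9 CPM against 0.384, 0.258 and 0.153 CPM (log2 fold change 8.08 ± 0.45, FDR = 1.4e-08). ALDH5A1, which degrades succinic semialdehyde, was at 31.3, 23.9 and 26.2 CPM against 0.0256, 0.0287 and 0.179 CPM (log2 fold change 8.34 ± 0.37, FDR = 2.1e-09). In each of the 3 the lines were separated without overlap. ALDH2, the mitochondrial enzyme that clears acetaldehyde, was higher in A431 by 4.68 ± 0.21. ALDH1A3 was the member with at least 10 CPM that was higher in HaCaT (-0.62 ± 0.17). The second member called in HaCaT lost its place without A431 library 1 or 3 or HaCaT library 1 or 3, when 1 remained called on that side. The median difference was 1.61 in the empty vector libraries and 1.17 with siYAP.

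Targets of NRF2, the transcription factor of the oxidative stress response, were split, with 9 of 30 (30%) higher in A431 and 7 (23.3%) in HaCaT. The ferritin light chain FTL was at 1170.0, 1211 and 1255 CPM in A431 and 183, 479 and 254 CPM in HaCaT (log2 fold change 1.99 ± 0.25, FDR = 2.1e-05), although FTL has processed pseudogenes. Glutathione reductase (GSR) and the catalytic subunit of glutathione synthesis (GCLC) were higher in A431 (1.17 ± 0.09 and 0.87 ± 0.12). The pentose phosphate enzyme PGD was lower in A431, at 83.8, 111 and 105 CPM against 254, 337 and 281 CPM (log2 fold change -1.54 ± 0.15, FDR = 1.5e-06). The aldo-keto reductase AKR1C2 (-1.33 ± 0.36), whose sequence is close to that of AKR1C1 and AKR1C3, and the glutathione peroxidase GPX2 (-1.26 ± 0.13) were lower as well.

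Among the G1 regulators, 4 genes had 3 counts or fewer in every library of 1 line. CDKN2B, an inhibitor of CDK4 and CDK6, was at 24.5, 17.5 and 15.7 CPM in HaCaT and 0, 0 and 0 CPM in A431, at least 172-fold lower in A431. RB1, the retinoblastoma protein, was at 69.6, 89.4 and 86.6 CPM in A431 against 149, 149 and 162 CPM in HaCaT (log2 fold change -0.91 ± 0.11, FDR = 1.2e-05). Its relative RBL2 was higher in A431 (log2 fold change 1.34 ± 0.29, FDR = 0.0013), as were the CDK inhibitor CDKN2C (1.36 ± 0.20) and the transcription factor E2F5 (1.34 ± 0.20). E2F1 was called higher in A431 (log2 fold change 0.83 ± 0.29, FDR = 0.028), but not without A431 library 2 (0.74 ± 0.33, FDR = 0.081), HaCaT library 1 (0.84 ± 0.34, FDR = 0.052) or HaCaT library 2 (0.60 ± 0.29, FDR = 0.098). Cyclin E2 (CCNE2) was lower in A431 (log2 fold change -0.83 ± 0.27, FDR = 0.019), but not called without A431 library 1 (-0.62 ± 0.27, FDR = 0.075), HaCaT library 2 (-0.68 ± 0.29, FDR = 0.067) or HaCaT library 3 (-0.68 ± 0.30, FDR = 0.076). Of 27 G1 genes, 7 (25.9%) were higher in A431 and 9 (33.3%) in HaCaT.

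Most genes of DNA replication and mitosis were not called between the lines. Of 44 replication genes, 4 (9.09%) were higher in A431 and 12 (27.3%) in HaCaT, and 28 were not called. The number higher in HaCaT ranged from 8 to 16 when single libraries were left out. MCM4, a subunit of the replicative helicase, was at 217, 303 and 287 CPM in A431 and 384, 492 and 515 CPM in HaCaT (log2 fold change -0.79 ± 0.17, FDR = 0.0013). GINS3 (-0.92 ± 0.16) and RFC1 (-0.78 ± 0.09) were lower in A431 too, and GINS4 (0.98 ± 0.26), RFC4 (0.62 ± 0.11) and RPA2 (0.67 ± 0.11) were higher. PCNA, the sliding clamp, was lower in A431 (log2 fold change -0.44 ± 0.14, FDR = 0.018), but not called without A431 library 1 (-0.28 ± 0.11, FDR = 0.0503) or HaCaT library 3 (-0.38 ± 0.16, FDR = 0.069). Of 32 mitotic genes, 4 (12.5%) were higher in A431 and 5 (15.6%) in HaCaT, 23 were not called, and the median was 0.02. ANLN, the cytokinesis scaffold, was at 322, 437 and 425 CPM in A431 and 859, 1047 and 1052 CPM in HaCaT (log2 fold change -1.32 ± 0.21, FDR = 1.4e-04). KIF23 (-1.22 ± 0.30) and CENPF (-0.91 ± 0.23) lay on the same side, while the kinesin KIF2C (1.06 ± 0.17), the kinetochore protein NDC80 (1.04 ± 0.15) and the checkpoint protein MAD2L1 (0.74 ± 0.13) were higher in A431. Leaving out single libraries gave 3 to 6 mitotic genes higher in HaCaT, with 3 reached without A431 library 1.

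Of the genes the study followed for cell growth, ODC1, the rate-limiting enzyme of polyamine synthesis, was at 53.0, 159 and 125 CPM in A431 and 59.0, 137 and 97.3 CPM in HaCaT (log2 fold change 0.20 ± 0.33, FDR = 0.62). A431 library 1 lay far below its replicates for this gene. RPTOR, the scaffold of mTORC1, had a log2 fold change of -0.22 ± 0.22 (FDR = 0.43), and AZIN2, an ornithine decarboxylase relative, of 0.44 ± 0.46 (FDR = 0.43). None of the 3 was called.

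The TGF-beta and BMP pathway was higher in HaCaT for 15 of 32 members tested (46.9%) and in A431 for 8 (25%), with a median of -0.44. Of the ligands, INHBA, the chain of activin A, was at 0.646, 0.245 and 0.473 CPM in A431 and 24.8, 48.8 and 25.4 CPM in HaCaT (log2 fold change -6.17 ± 0.39, FDR = 4.2e-08). TGFB1 was higher in A431, at 31.3, 22.9 and 22.4 CPM against 10.0, 3.82 and 10.2 CPM (log2 fold change 1.67 ± 0.30, FDR = 3.8e-04). The activin-binding FSTL3 was lower in A431 (log2 fold change -3.19 ± 0.24, FDR = 2.0e-07), and so was ID4, a target of BMP signalling (log2 fold change -2.76 ± 0.27, FDR = 2.0e-06). The activin receptor ACVR1B was higher in A431 (log2 fold change 0.66 ± 0.15, FDR = 0.0016).

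For the Notch pathway 6 of 20 members (30%) were higher in A431 and 5 (25%) in HaCaT. The receptor NOTCH3 was at 25.1, 16.9 and 19.3 CPM in A431 and 2.02, 0.201 and 0.893 CPM in HaCaT (log2 fold change 4.27 ± 0.49, FDR = 7.5e-06). The ligand JAG1 was lower in A431 (log2 fold change -0.84 ± 0.11, FDR = 2.7e-05), as were the co-activator MAML2 (-0.78 ± 0.19) and the inhibitor NUMB (-0.71 ± 0.10). The glycosyltransferase RFNG (1.75 ± 0.22) and the target NRARP (0.88 ± 0.21) were higher. For WNT, 11 of 29 members (37.9%) were higher in A431 and 7 (24.1%) in HaCaT. Leaving out single libraries lowered the first count to 9 or 10. The receptor FZD3 was at 275, 247 and 252 CPM against 17.7, 12.4 and 14 CPM (log2 fold change 4.13 ± 0.13, FDR = 1.8e-10), and the co-receptor LRP5 (1.29 ± 0.24) and the transcription factor TCF7L2 (1.42 ± 0.27) were higher in A431. The secreted inhibitor DKK1 (-0.97 ± 0.16) and RNF43 (-0.89 ± 0.21) and ZNRF3 (-0.79 ± 0.15), which remove frizzled receptors, were lower.

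HOX genes, which mark the position along the body from which a cell came, were divided, with 5 of 28 (17.9%) higher in A431 and 7 (25%) in HaCaT. HOXC10 was at 0.172, 0.163 and 0.334 CPM in A431 and 9.56, 11.6 and 12.9 CPM in HaCaT (log2 fold change -5.57 ± 0.36, FDR = 4.5e-08). HOXA11 (-1.28 ± 0.28) and HOXC13 (-1.25 ± 0.22) were lower in A431, and HOXA5 (1.12 ± 0.19), HOXB7 (0.97 ± 0.20) and HOXA9 (0.64 ± 0.13) higher. Of 34 cancer-testis antigens only 3 passed the filter, and 2 of them were called, both higher in A431. These 2 lay near 0 in HaCaT with YAP5SA and passed the filter through A431, so their direction is no result about the list. One is MAGEA4, above, and the other is PRAME, at 7.83, 8.05 and 7.12 CPM in A431 and 0.0512, 0 and 0.0510 CPM in HaCaT, at least 96.0-fold higher in A431.

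The same line comparison can be made without the active mutant. With the empty vector, 1 library of each line, 90.2% of the genes higher in A431 and 93.1% of those higher in HaCaT lay on the same side, against 67.5% and 63.9% of genes not called that leaned either way. With siCTRL, again 1 of each, the shares were 80.1% and 75.2%. A test of the difference of line differences between YAP5SA and the empty vector called 13 of 14673 genes (0.0886%), 3 (0.0204%) greater in A431 and 10 (0.0682%) greater in HaCaT, while 3280 had an unadjusted p under 0.05. It rests on a single vector library per line, which is taken to vary like the other groups, and the count changed to 876 without A431 library 1, 613 and 498 without HaCaT library 1 and 2, 1 without A431 library 2 or 3, and 21 with the replicate number as a block. The 13 genes were named after their values were seen. In each of them the HaCaT vector library lay outside the range of the HaCaT libraries with YAP5SA. SERINC2, a membrane protein for serine incorporation, was at 112, 119 and 100.3 CPM with YAP5SA and 115 CPM with the vector in A431, but at 35.5, 34.5 and 43.2 CPM and 7.96 CPM in HaCaT (difference -2.30 ± 0.26, FDR = 0.011). ARRDC3, an arrestin-like protein, had the opposite sign, with 66.9, 53.3 and 72.4 CPM and 205 CPM in HaCaT (difference 1.83 ± 0.28, FDR = 0.03). In this test "greater in" gives the direction in which the line difference lay further with YAP5SA, and not the line with the higher level. In this sense the others greater in A431 were ATP1B3 and LINC01578. The others greater in HaCaT were DNAJC6, FLOT2, MED15, MTCL1, NPIPB3, PHC2, PVRL2, RAB43 and RPS15. By level with YAP5SA, for instance, ATP1B3 was higher in HaCaT (-0.53), and FLOT2 (0.60) and RPS15 (0.58) were higher in A431. Between the lines with YAP5SA, PVRL2 was called (log2 fold change 0.27 ± 0.10, FDR = 0.037), and so was PHC2 (log2 fold change 0.32 ± 0.10, FDR = 0.015). PVRL2 was not called without A431 library 1, 2 or 3 or HaCaT library 1 or 2 (0.23 to 0.29, FDR = 0.056 to 0.11), nor PHC2 without HaCaT library 1 (0.24 ± 0.10, FDR = 0.051). The call of PVRL2 was also lost under 8 other settings (FDR = 0.056 to 0.15), and that of PHC2 with the 6 YAP5SA libraries alone (FDR = 0.092) and after thinning all libraries to the smallest total (FDR = 0.052).

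With siYAP, 3 libraries of each line, the lines differed at 8592 genes (58.6%), of which 4357 (29.7%) had a log2 fold change of at least 1. Of the genes higher in A431 with YAP5SA, 2543 (65%) were also higher there with siYAP, which is 54.7% of the siYAP genes. For HaCaT the number was 2150 (62.3% and 54.5%). Another 904 genes were called in opposite directions, 381 of them higher in A431 with YAP5SA. Over all genes tested, the fold changes of the 2 comparisons correlated with Pearson's r = 0.777 and Spearman's rho = 0.579. No library is in both comparisons, and genes are not independent replicates. The difference of the line differences was called for 5895 genes (40.2%). It lay further towards A431 with YAP5SA for 2775 (18.9%) and further towards HaCaT for 3120 (21.3%). The control libraries of the arms also differed: the line difference in the empty vector pair minus that in the siCTRL pair had the same sign for 84.2% of these 5895 genes and for 64.1% of the others. The siRNA transfection and the vector therefore cannot be told apart from YAP in this difference.

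**Figure D4:**
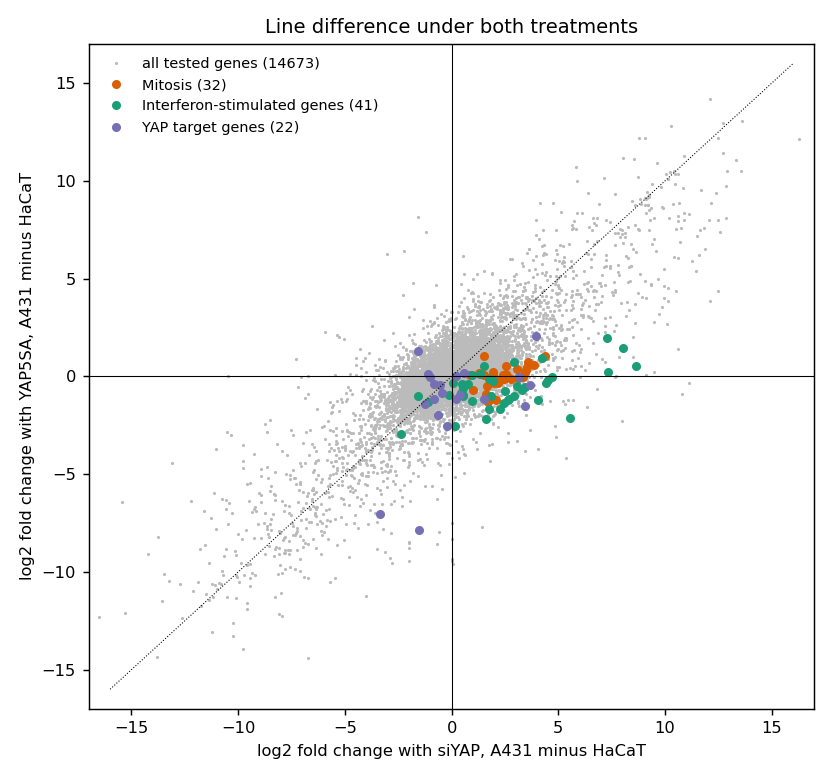
Log2 fold change of A431 over HaCaT for the genes tested, with siYAP on the horizontal axis and with YAP5SA on the vertical axis. The dotted line marks equal values. Mitotic and interferon-stimulated genes lie mostly below the line, further towards A431 with siYAP, and the Pearson correlation over all genes is 0.777.

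Several lists differed between the treatments. Over all genes tested, 31.7% were higher in A431 and 26.9% in HaCaT with siYAP, against 26.7% and 23.5% with YAP5SA. All 32 mitotic genes were higher in A431 with siYAP, against 4 with YAP5SA, with medians of 2.27 and 0.02. The median was 1.89 in the siCTRL pair and -0.55 in the empty vector pair. Of the 44 replication genes, 29 were higher in A431 with siYAP and 4 with YAP5SA. For the interferon-stimulated genes 35 of 41 were higher in A431 with siYAP and 5 with YAP5SA, with medians of 1.93 and -0.69. By the test of the difference, 36 of the 41 lay further towards HaCaT with YAP5SA. The siCTRL pair again lay near siYAP (1.64) and the vector pair near YAP5SA (-0.79). The chemokines and cytokines had medians of 2.70 with siYAP, 0.67 with siCTRL, 0.54 with the vector and -0.39 with YAP5SA. Of the 19 MHC class I genes, 17 were higher in A431 with siYAP and 0 in HaCaT. The aldehyde dehydrogenases had medians of 1.43, 1.61, 0.82 and 1.17 with YAP5SA, empty vector, siCTRL and siYAP, on the A431 side each time.

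**Figure D5:**
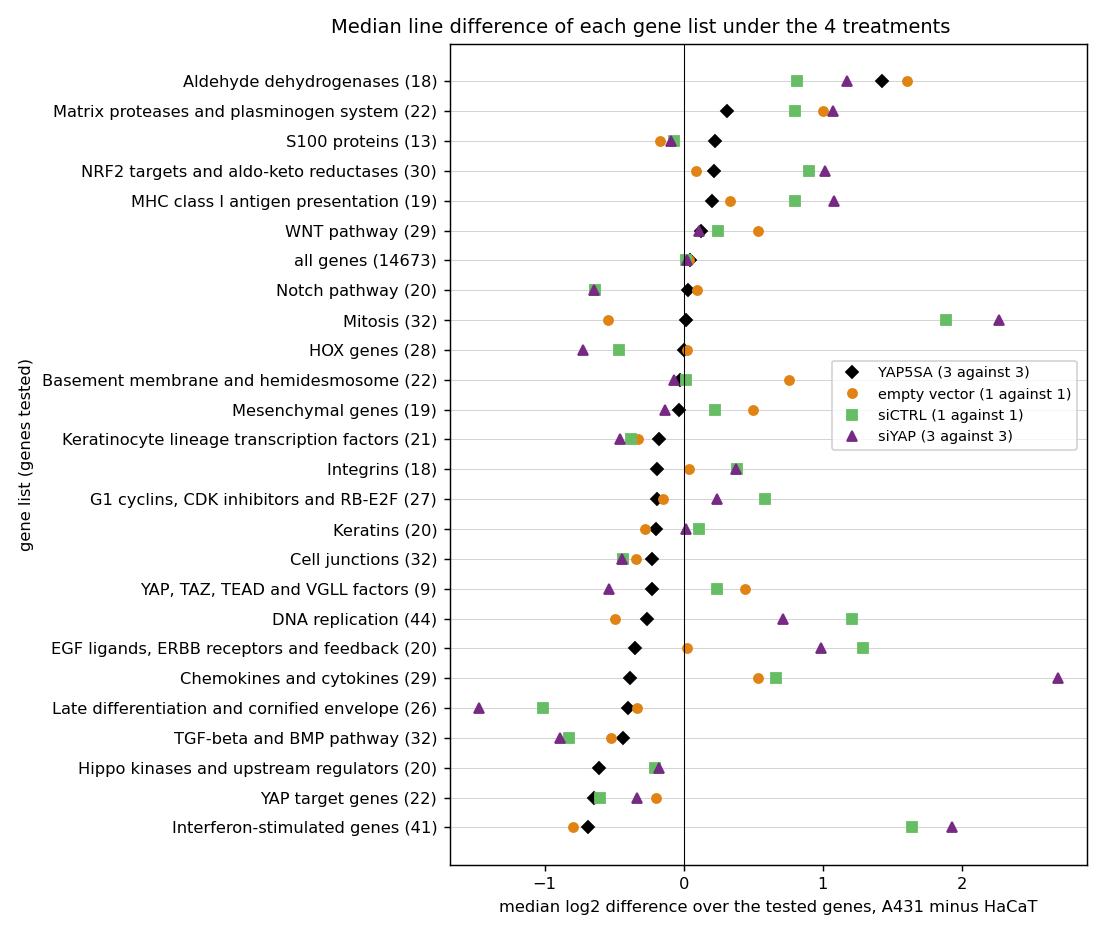
Median log2 difference of A431 over HaCaT for 25 gene lists and all genes tested under each of the 4 treatments, from a fit for YAP5SA and siYAP (3 libraries of each line) and from single libraries for empty vector and siCTRL. Mitosis and interferon-stimulated genes lie to the right for siCTRL and siYAP (medians of 1.64 to 2.27) and near or left of zero for empty vector and YAP5SA.

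Some single genes differed far more with one treatment than with the other. IL6, on the HaCaT side with YAP5SA (above), was at 2.96, 2.03 and 1.95 CPM in A431 and 0, 0.194 and 0 CPM in HaCaT with siYAP. IFI27, an interferon-stimulated gene, was at 786, 589 and 583 CPM in A431 and 453, 388 and 493 CPM in HaCaT with YAP5SA, and at 232, 233 and 209 CPM and 1.08, 0.583 and 0.0992 CPM with siYAP. HaCaT thus held either gene in the YAP5SA libraries and almost none of it in the siYAP libraries. KLHL23 and PCOLCE2 were higher in A431 with YAP5SA (log2 fold change 3.88 ± 0.44, FDR = 2.0e-05 and log2 fold change 4.37 ± 0.27, FDR = 1.6e-07), and HaCaT had no read of either with siYAP. L1CAM, a neural adhesion molecule, was at 10.1, 8.12 and 18.6 CPM in HaCaT with YAP5SA and 0, 0 and 0.0278 CPM in A431, at least 110.0-fold lower in A431, and was under 1 CPM in each siYAP library. Its mean logCPM fell below the limit for a call without HaCaT library 3 (fitted log2 fold change -9.13 ± 0.84). In the opposite direction the secreted OLFM4 was at 38.7, 37.5 and 38.9 CPM in HaCaT with siYAP, and at 0.564, 0.258 and 0.204 CPM with YAP5SA. SCNN1G, a chain of the epithelial sodium channel, was at 32.1, 37.4 and 31.5 CPM in HaCaT with siYAP and 0.154, 0 and 0.255 CPM with YAP5SA. In HaCaT both lay far above their YAP5SA level with siYAP, and DCN, COLCA1 and BCAS1 had the same pattern. Between the lines with YAP5SA, BCAS1 (4.14 ± 0.68) and COLCA1 (2.59 ± 0.63) were higher in A431, although the mean logCPM of COLCA1 fell below the limit with the 6 YAP5SA libraries alone. DCN, which encodes decorin, was at 0.258, 0.0817 and 0.0556 CPM in A431 and 0, 0 and 0.0765 CPM in HaCaT and was not called, but it was without HaCaT library 3 (fitted 4.83 ± 1.39, FDR = 0.013) and with the likelihood ratio test (FDR = 0.029).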

How the data were processed

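Read counts were taken from 1 table that the authors deposited. It holds expected counts per gene, estimated with RSEM on RefSeq gene models from paired reads trimmed to 75 bp. The study's methods give RSEM 1.2.21 and the submitters' processing notes RSEM 1.2.11 and hg19. These deposited expected counts are unscaled and need not be whole, and were rounded here. Of 26229 listed genes, 14673 had a mean above 10 counts per library and were tested. Library totals were 18115624 to 46791673. Among the symbols, 28 had been turned into dates and are not named.

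Counts were analysed in R 4.3.3 with edgeR 4.0.16 (TMM factors, quasi-likelihood test, 1 model of 8 groups and 16 libraries, 8 residual degrees of freedom, prior count 0.125). Alternatives used edgeR or DESeq2 1.42.0, and limma 3.58.1 was loaded but gave no separate fit. Tables and plots were made with Python 3.11.15 (pandas 2.3.3, numpy 2.4.6, matplotlib 3.10.9 and scipy 1.17.1). P values were adjusted over all genes tested. The standard error is the log2 fold change divided by the square root of F. Calls needed a logCPM above 1 and an FDR under 0.05, the limits the study uses. In data simulated with this design, with 50 genes changed at each fold among 14556, 30% were recovered at 1.5-fold, 68% at 2-fold and 100% at 4-fold and 8-fold, and 9 calls were false. Far fewer genes differed in the simulation than the 50.2% called with YAP5SA, so these shares need not hold for the comparison itself. Single-library differences used log2(CPM + 0.5).

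Same-numbered YAP5SA libraries of the lines deviated together (correlations 0.373, 0.144 and 0.154 for replicates 1, 2 and 3). Same-numbered siYAP libraries gave 0.00502, 0.11 and 0.247. Unlike numbers of YAP5SA gave -0.372 to 0.303, the highest for A431 library 2 with HaCaT library 3. That unlike pair exceeded the same-numbered pairs 2 and 3 of YAP5SA, so the correlations do not settle whether equal numbers are pairs. Alternative fits used the replicate number as a block, over all libraries and within the YAP5SA libraries only. Named genes are those that the study names around its RNA-seq, the 12 largest differences each way among called genes with at least 50 CPM and no overlap, the 3 largest each way per list with at least 10 CPM, and the 5 largest each way in the difference against siYAP. Sex-linked marker genes and date symbols were left out, and some genes that this rule names are not reported here. Further list members, and the genes called against the empty vector, were named after their values were seen. The comparison, the 26 gene lists (809 members, of which 809 matched) and the tests were chosen with earlier results of these data known.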

Additional observations from a re-analysis of the deposited data

Results flagged for a closer look

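The difference between the lines with YAP5SA was compared with that with siYAP by a test of the difference itself (edgeR), which 5895 genes passed. The value given is the log2 line difference with YAP5SA minus that with siYAP, which is positive where the balance was further towards A431 with YAP5SA. For the TEAD and VGLL factors it was 1.62 for VGLL4, 1.5 for VGLL3 and 0.60 for TEAD3 in the direction of A431, and -2.27 for TEAD4 and -0.46 for TEAD1 in the direction of HaCaT. For the Hippo regulators it was 0.73 for AJUBA in the direction of A431, and -1.39 for AMOTL2, -1.38 for LATS2, -1.17 for WWC1, -0.97 for NF2, -0.53 for FRMD6 and -0.53 for MOB1A in the direction of HaCaT. For the YAP target genes it was 2.85 for CCDC80 and 1.18 for IGFBP3 in the direction of A431, and -6.33 for ANKRD1, -4.95 for CYR61, -4.13 for TGFB2, -3.69 for CTGF, -2.70 for F3, -2.34 for NT5E, -1.86 for RBMS3 and -1.36 for GADD45B in the direction of HaCaT. For EGF ligands, ERBB receptors and their feedback genes it was 1.56 for ERBB2 and 1.47 for ERBB3 in the direction of A431, and -4.70 for AREG, -4.21 for EREG, -3.84 for DUSP6, -3.03 for NRG1, -1.69 for HBEGF and -0.84 for TGFA in the direction of HaCaT. Among the integrins it was 0.62 for ITGB8 in the direction of A431, and -5.27 for ITGB2, -2.15 for ITGA4, -1.60 for ITGA1 and -0.87 for ITGA6 in the direction of HaCaT. For the basement membrane and hemidesmosome it was 1.65 for HSPG2 in the direction of A431, and -3.70 for NID2, -2.26 for LAMA3, -2.21 for NID1, -1.15 for LAMB3 and -0.67 for DST in the direction of HaCaT. Among the keratins it was -5.62 for KRT6B, -3.02 for KRT6A, -2.80 for KRT16, -1.99 for KRT6C, -1.90 for KRT8, -1.5 for KRT14 and -1.06 for KRT7. Among the lineage transcription factors it was 1.5 for ELF3 and 1.01 for ID2 in the direction of A431, and -2.75 for KLF4 and -2.14 for SOX9 in the direction of HaCaT. For late differentiation it was 2.65 for IVL.

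Among the S100 proteins it was 2.32 for S100A4 in the direction of A431, and -2.46 for S100A2 and -1.42 for S100P in the direction of HaCaT. For the cell junctions it was 1.06 for CLDN1 and 0.81 for DSG3 in the direction of A431, and -2.27 for GJB2 in the direction of HaCaT. For the mesenchymal genes it was -5.34 for FN1, -5.12 for LOXL2 and -2.14 for CALD1. Among the matrix proteases and their inhibitors it was 2.17 for TIMP3 and 1.05 for PLAT in the direction of A431, and -6.14 for SERPINE2 and -4.43 for MMP1 in the direction of HaCaT. Among the chemokines and cytokines it was -9.52 for IL6, -7.91 for CXCL8, -6.27 for CXCL11, -1.30 for CCL22 and -1.20 for CSF1. For the interferon-stimulated genes it was -8.07 for IFI27, -6.57 for BST2, -5.32 for HERC5, -3.80 for IFIT2, -3.30 for DDX60 and -2.73 for EPSTI1. For MHC class I presentation it was -1.5 for TAP1, -1.28 for B2M, -1.22 for HLA-C and -0.91 for ERAP2. For the NRF2 targets it was 1.54 for GPX2 in the direction of A431, and -1.5 for PGD and -0.69 for GCLC in the direction of HaCaT. Among the aldehyde dehydrogenases it was 2.25 for ALDH5A1, 2.19 for ALDH1A1 and 0.81 for ALDH1A3.

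For the G1 regulators it was 1.86 for RBL2 in the direction of A431, and -2.24 for E2F1 and -1.01 for E2F5 in the direction of HaCaT. For DNA replication it was -1.44 for RFC4, -1.16 for GINS4 and -1.12 for RFC1. For mitosis it was -3.31 for KIF23, -3.30 for KIF2C, -3.02 for ANLN, -2.86 for MAD2L1 and -2.51 for CENPF. For the TGF-beta and BMP pathway it was 1.49 for ID4 in the direction of A431, and -3.85 for INHBA and -2.28 for FSTL3 in the direction of HaCaT. For the Notch pathway it was 3.36 for NOTCH3, 1.69 for MAML2 and 0.60 for JAG1. For the WNT pathway it was 1.51 for TCF7L2 in the direction of A431, and -1.26 for ZNRF3 in the direction of HaCaT. Among the HOX genes it was 1.65 for HOXA5, 0.97 for HOXC13 and 0.76 for HOXB7 in the direction of A431, and -1.72 for HOXA11 in the direction of HaCaT. For named genes outside the lists it was 8.70 for OLFM4, 7.33 for DCN, 6.69 for SCNN1G, 6.4 for BCAS1, 6.32 for COLCA1, 5.17 for GALNT5, 4.09 for LY6D, 2.52 for FUCA2, 1.79 for NPIPB3, 1.44 for PFN2, 1.32 for ATP1B3 and 0.84 for LINC01578 in the direction of A431, and -9.65 for L1CAM, -8.22 for KLHL23, -8.11 for PCOLCE2, -4.83 for AKAP2, -3.85 for DNAJC6, -2.68 for C15orf48, -2.50 for ODC1, -1.44 for MTCL1, -1 for PHC2, -0.76 for PVRL2 and -0.56 for MED15 in the direction of HaCaT. For cancer-testis antigens it was -4.23 for PRAME. Values are fitted, and where a group held 3 counts or fewer in each library (C15orf48, CXCL11, DCN, FUCA2, GALNT5, KLHL23, KRT6B, L1CAM, OLFM4, PCOLCE2 and PRAME) they depend on the prior count and are no bound. The siRNA and vector controls of the lines differed in the same sign for 84.2% of the 5895 genes, so the part of YAP in these differences cannot be told apart from that of the transfection.

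The same test against the empty vector passed 13 genes and rests on 1 vector library of each line. The value was 1.83 for ARRDC3, 1.44 for ATP1B3 and 1.06 for LINC01578 in the direction of A431, and -10.61 for RAB43, -8.39 for NPIPB3, -4.81 for MTCL1, -2.47 for DNAJC6, -2.30 for SERINC2, -1.88 for MED15, -1.56 for PVRL2, -1.40 for FLOT2, -1.40 for PHC2 and -1.39 for RPS15 in the direction of HaCaT. NPIPB3 and RAB43 had no count in the HaCaT vector library, so their values depend on the prior count, and NPIPB3 also has near-identical copies.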

How the results depend on the processing

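The count of 7362 genes lay between 6593 and 7477 when single YAP5SA libraries were left out, and between 6108 and 8380 under the other settings that kept the fold free. Requiring a log2 fold change of at least 1 left 2972 genes with YAP5SA, 4357 with siYAP and 3189 in their difference. Without 1 library, siYAP gave 7920 to 8192 genes and the difference of the line differences 5166 to 6266. The replicate block gave 7519 genes, and within the YAP5SA libraries only (added after seeing the data) 7979.

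The count of 13 genes against the empty vector was not stable. It was 108 with RLE size factors, 274 without TMM factors, 778 with the likelihood ratio test, 35 without a filter, 217 with more than 10 counts in every library, 21 with the replicate block, 41 after thinning, 943 with DESeq2, 138 with YAP1 left out of the totals (added after seeing the data) and 0 in edgeR with the libraries of the comparison alone, where 2144 genes had an unadjusted p under 0.05. Without single libraries it lay between 1 and 876. Of its calls, 23.1% were greater in A431, against 54.7% without A431 library 1, 38.7% with the likelihood ratio test and 43.8% with DESeq2. The cause was not tested.

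No called value changed sign. The number of settings that ended a call, where given, leaves out the required log2 fold change of 1. RLE factors, library totals alone and leaving out YAP1 moved the median of all genes by -0.04, -0.03 and -0.06, so that medians this close to zero, that of all genes included, have no firm sign. Some values that were not called changed sign, among them TEAD3 and AXL with each of these scalings. Of the values for single genes and counts, 4972 kept their status, 150 lost the call, 18 gained it and 107 counts moved. Those that kept it include uncalled genes whose sign changed and counts that changed little. The block on the YAP5SA libraries added the calls of TEAD1 and IFI27, which other settings called too, and of LINC01578 among the named genes. Depth limits genes under about 0.129 CPM, and differences of 1.5-fold were often missed in the simulation, where far fewer genes differed than here.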
